A study of Mus musculus with 7 samples.

Results

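The 10 genes studied here belong to muscle wasting and its control by FoxO factors, and were followed upon depletion of lnc-SMaRT in differentiating C2C12 cells: Fbxo32, Trim63, Trim54, Trim55, Foxo1, Foxo3, Foxo4, Sesn1, Klf15 and Bnip3. They were picked by name, as rows of the expression table whose gene symbol, split at commas, held one of the 10, and 9 of the 10 had a row among 11642. Klf15, a transcription factor induced by glucocorticoids in muscle, had no row, and its level was not analysed here. The table held rows with a CPM of at least 1 in at least 2 samples, as far as the reads could be worked out. All 9 genes present passed the filter on low values, and 11086 genes were tested in all.

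C2C12 is an established mouse myoblast line whose cells form myotubes once serum is lowered, and lnc-SMaRT is a long non-coding RNA of differentiating muscle. The 4 samples were total RNA from cells at day 2 of differentiation. The authors describe 2 independent cell populations, without saying whether each received both siRNAs. In the si-SCR samples, 2 in number, the cells received a scramble siRNA as control, and in the 2 si-SMaRT samples siRNA #1, which targets lnc-SMaRT. All 4 carried a transfected siRNA, and the depletion rests on 1 siRNA sequence in 1 cell line without intact muscle. The other 3 of the 7 samples were an input and RNA pulled down with probes against lnc-SMaRT or, as control, against LacZ, with 1 library each.

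FoxO transcription factors are held in the cytoplasm by the kinase AKT, downstream of insulin and IGF-1, and enter the nucleus when that signal falls, so much of their control acts on the proteins and leaves the mRNA level untouched. In muscle they are known to drive the genes of the ubiquitin ligases Atrogin-1 (Fbxo32) and MuRF1 (Trim63), which mark proteins for the proteasome in wasting muscle, and genes of autophagy such as Bnip3. The relatives MuRF2 (Trim55) and MuRF3 (Trim54) sit with MuRF1 on the sarcomere and on microtubules, and they also take part in building the contractile apparatus.

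The values of the ligase genes did not lie on one side of the controls. Fbxo32 was 1.81-fold higher in si-SMaRT, whereas Trim63, Trim54 and, to a smaller extent, Trim55 were lower in both si-SMaRT samples than in either control. Foxo1 and Foxo3 were higher and Foxo4 lower in both si-SMaRT samples, while the values of Sesn1 and Bnip3 overlapped between the groups. Such a clean separation was also seen in 40.7% of all tested genes. With 2 samples per group, it therefore says little about a single gene. None of the 9 genes passed an adjusted p of 0.05 in limma, where 56 of all 11086 genes did (0.505%, 20 higher and 36 lower in si-SMaRT). By voom on the reads worked out from the values, 0 of the 9 passed as well, against 108 of all 11085 genes (32 higher and 76 lower). At an unadjusted p under 0.05, 4 of the 9 passed (Fbxo32, Trim63, Trim54 and Foxo1), against 9.09% of all genes. After the trend of each sample with the GC content of genes was removed, 3 of the 9 passed the adjusted threshold, Fbxo32 upwards and Trim63 and Trim54 downwards, against 5.67% of all genes (593 of 10457, 281 higher and 312 lower).

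The depleted RNA itself checked the labels. Lnc-SMaRT had 19.1 and 15.9 RPKM in the controls and 2.88 and 3.65 RPKM upon depletion, with a log2 fold change of -2.39 (SE 0.28, limma adjusted p = 0.000882). RPKM is the number of reads scaled to the length of the gene and the size of the library, as the authors calculated it. The effective library sizes lay between 11291255 and 14312935 reads, and the 9 genes had between 117 and 3479 reads in a sample. By the authors' read statistics, the removal of rRNA and tRNA took a far larger part of the read pairs of si-SMaRT 1 than of the others. Its bearing on the values was not tested. The 2 si-SMaRT samples differed along GC content: across 10457 genes, the log2 difference of si-SMaRT 2 over si-SMaRT 1 had a Spearman correlation of -0.845 with GC content, against 0.355 for si-SCR 2 over si-SCR 1. Of 10 markers of differentiating muscle cells, all but Myf6 had a row. The summed level of these 9 was 12501 and 11791 RPKM in si-SCR and 8298 and 5670 RPKM in si-SMaRT. Most of it came from Mylpf and Acta1, at 6687 and 2778 RPKM in si-SCR 1. Of the 9, 8 had a log2 fold change below 0 and Myod1 one of 0.26, with a median of -0.47. The groups overlapped for Myod1, Myf5 and Tmem8c. Of 6 markers each, macrophages had a row for 2, adipocytes and neurons for 1 and endothelial cells for 0, and Cd68 of macrophages lay between 0.788 and 1.13 RPKM, Pparg of adipocytes between 1.16 and 1.97 RPKM and Tubb3 of neurons between 13.6 and 24.1 RPKM. In these bulk samples fewer cells that express a gene and less RNA per cell cannot be told apart.

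The promoter of Trim63 is shown because it holds matches to 3 kinds of motif searched, those of the FoxO factors, of the glucocorticoid receptor and of the myogenic factors. The windows came from RefSeq on GRCm38.p6 and ran from 250 bases before to 50 bases after each start, 300 bases in length, and 7 of the 10 genes matched with 8 windows. No window was matched for Fbxo32, Trim55 or Foxo4. In the 250 bases before the start of Trim63, chr4:134314870-134315119 on the plus strand, capitals mark, from left to right, a match to the glucocorticoid receptor motif, a match to the FoxO motif in reverse orientation and an E-box.
Trim63 promoter: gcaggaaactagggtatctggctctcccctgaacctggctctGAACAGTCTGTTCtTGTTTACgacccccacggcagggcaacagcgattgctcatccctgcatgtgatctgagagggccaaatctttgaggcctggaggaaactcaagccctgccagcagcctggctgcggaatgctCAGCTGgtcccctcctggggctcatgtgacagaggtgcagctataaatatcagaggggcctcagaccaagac

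The FoxO motif was searched as GTAAACA on both strands and was present in 3.65% of 32851 promoter windows. In Trim63 it lay 194 to 188 bases before the start. The glucocorticoid receptor motif GNACA, 3 bases of any kind and TGTNC, in which N is any base, was present in 0.475% of windows and lay 208 to 196 bases before the start of Trim63, so 1 base separated the 2 matches. The E-box CAGCTG, the form bound by MyoD and myogenin, was present in 16.3% of windows. It lay 72 to 67 bases before the start of Trim63 and 113 to 108 bases before that of Trim54. These are the RefSeq starts of the windows, and the gene start given below for Trim54, from another annotation, lies further downstream. Among the other windows matched, Sesn1 had a FoxO match in 1 of its 2 windows, within the transcribed 50 bases. The MEF2 motif, CTA, 4 bases of any kind and TAG, present in 3.69% of all windows, was in none of the 8.

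The stretch around the E-box of Trim54, chr5:31116469-31116534 on the plus strand, and that around the hypoxia match of Bnip3, chr7:138909579-138909644 on the minus strand, are shown with the match in capitals. In Bnip3 the capitals hold the hypoxia motif ACGTG on both strands at once, as 2 matches that overlap. This motif was present in 19.6% of windows, and also in that of Klf15.
Trim54 promoter stretch: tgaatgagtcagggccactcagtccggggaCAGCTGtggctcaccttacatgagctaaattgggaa
Bnip3 promoter stretch: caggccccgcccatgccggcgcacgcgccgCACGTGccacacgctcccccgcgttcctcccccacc
These matches describe the letters of the windows, and binding of a factor was not measured in these samples.

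In control cells the genes spanned a wide range of levels. The mean of the si-SCR samples was highest for Trim63 at 32.7 RPKM, followed by Trim54 at 28.9, Bnip3 at 27.5, Sesn1 at 19.999, Fbxo32 at 18.3 and Trim55 at 17.4 RPKM. The FoxO genes were lower, with 7.61 RPKM for Foxo4, 6.61 for Foxo3 and 1.31 for Foxo1. The 2 values of a gene overlapped those of the next gene for Trim54 and Bnip3, Sesn1 and Fbxo32, Fbxo32 and Trim55, and Foxo4 and Foxo3, so these neighbours did not differ beyond their spread. Of all rows of the table, 85.6% had a lower mean in si-SCR than Trim63, 75.1% a lower one than Fbxo32 and 15.2% a lower one than Foxo1. In si-SMaRT the order of the means was Bnip3 at 36.0 RPKM, Fbxo32 at 33.1, Sesn1 at 19.5, Trim63 at 18.9, Trim54 at 15.8, Trim55 at 14.7, Foxo3 at 8.80, Foxo4 at 5.72 and Foxo1 at 2.12 RPKM. Fbxo32 thus stood below the MuRF genes Trim63 and Trim54 in both si-SCR samples and above them in both si-SMaRT samples.

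**Figure D1:**
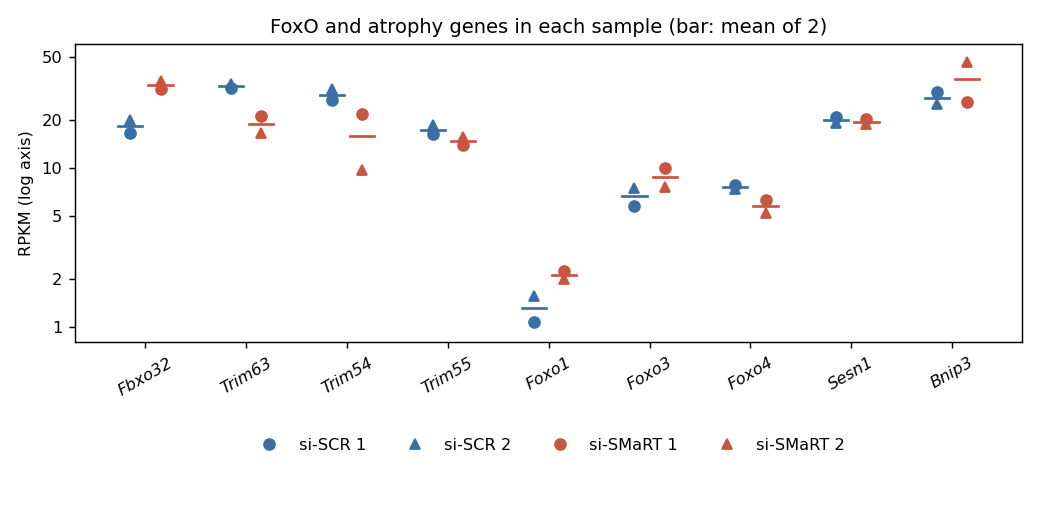
RPKM of the 9 genes (log axis) in si-SCR 1 and 2 (blue) and si-SMaRT 1 and 2 (red), with a bar at the mean of each group. Fbxo32 lies higher in both si-SMaRT samples (31.2 and 35.04 RPKM) than in si-SCR, Trim63 lies lower, and the si-SMaRT samples are far apart for Trim54 and Bnip3.

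Fbxo32 encodes the F-box protein Atrogin-1, which brings substrates to an SCF ubiquitin ligase. The gene lies on chr15 from 58175879 to 58214932 (GRCm38, minus strand). Its level was 16.6 and 20.1 RPKM in si-SCR 1 and 2 and 31.2 and 35.04 RPKM in si-SMaRT 1 and 2, from 1453 to 3479 reads. Both si-SMaRT samples were thus higher than either control, and the gap between the groups exceeded the spread within them. The means were 18.3 ± 2.48 and 33.1 ± 2.69 RPKM (SD, n = 2), and the log2 fold change was 0.86 (SE 0.26, 95% interval 0.30 to 1.42). Its adjusted p was 0.234 in limma. Of all tested genes, 1.32% had a higher log2 fold change. With the GC trend removed it was 0.79 (SE 0.15, limma adjusted p = 0.0213), and over all alternatives run the adjusted p of Fbxo32 lay between 6.94e-05 and 1.00. The antisense gene Gm15943 overlaps exons of Fbxo32 and had no row of its own.

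Trim63 encodes MuRF1, the RING-type ligase that tags myosin and other sarcomere proteins. It spans chr4 from 134315120 to 134329629 on the plus strand, just after the promoter shown above. Its level was 31.6 and 33.8 RPKM in si-SCR and 21.1 and 16.6 RPKM in si-SMaRT. The si-SMaRT samples were both below the controls, with no overlap. The means were 32.7 ± 1.55 and 18.9 ± 3.19 RPKM (SD, n = 2), the log2 fold change was -0.80 (SE 0.27, 95% interval -1.36 to -0.24), and the limma adjusted p was 0.268. Of all genes, 3.39% had a lower value. With the GC trend removed the log2 fold change was -0.76 (SE 0.13, limma adjusted p = 0.0179), and over the alternatives the adjusted p lay between 3.32e-05 and 1.00.

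Trim54, the gene of MuRF3, lies on chr5 from 31116712 to 31137630 on the plus strand, and had 26.6 and 31.1 RPKM in si-SCR and 21.8 and 9.73 RPKM in si-SMaRT. The groups did not overlap, but the 2 si-SMaRT samples lay much further apart than the controls. The means were 28.9 ± 3.19 and 15.8 ± 8.51 RPKM (SD, n = 2), with a log2 fold change of -0.98 (SE 0.33, 95% interval -1.67 to -0.28, limma adjusted p = 0.279). Its exons have a GC content of 59.9%, the highest among the 9 genes, and its log2 difference of si-SMaRT 2 over si-SMaRT 1 was -1.15, where the 200 genes of most similar GC content had a median of -0.95. Without si-SMaRT 2 the log2 fold change of Trim54 was -0.40, and without si-SMaRT 1 it was -1.56. With the GC trend removed it was -0.79 (SE 0.14, limma adjusted p = 0.0193), and the adjusted p ranged from 1.96e-12 to 1.00 over the alternatives. Its exons overlap those of Gm15469 on the other strand.

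Trim55, the gene of MuRF2, differed less than its relatives. It lies on chr3 from 19644474 to 19692421 on the plus strand and had 16.3 and 18.5 RPKM in si-SCR and 13.9 and 15.6 RPKM in si-SMaRT. The higher si-SMaRT sample lay just under the lower control. The log2 fold change was -0.24 (SE 0.26, 95% interval -0.80 to 0.32, limma adjusted p = 0.857), which leaves room for a difference in either direction. It was -0.15 without si-SCR 2 and -0.16 without si-SMaRT 1. The summed level of the 3 MuRF genes was 74.5 and 83.4 RPKM in si-SCR and 56.8 and 41.9 RPKM in si-SMaRT. Trim63 kept a like share of that sum in every sample, from 37.2% to 42.4%. The share of Trim55 was 21.9% and 22.1% in the controls, 24.4% in si-SMaRT 1 and 37.1% in si-SMaRT 2, and that of Trim54 was 35.7%, 37.3%, 38.4% and 23.2% in the same order. The lower share of Trim54 and higher share of Trim55 were thus seen in si-SMaRT 2 and hardly in si-SMaRT 1.

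The levels of Fbxo32 and Trim63, the pair usually read together as atrophy markers, were set against each other within each sample. Such a ratio needs no scaling for library size, but the GC trend does not cancel in it. The exons of Fbxo32 have 45.8% GC and those of Trim63 51.1%. For the 200 genes of most similar GC content, the median log2 difference of si-SMaRT 2 over si-SMaRT 1 was 0.23 and -0.22. Fbxo32 over Trim63 was 0.524 and 0.593 in si-SCR and 1.48 and 2.11 in si-SMaRT. The 4 samples fell on either side of equal levels by group. On the log2 scale the mean was -0.84 ± 0.13 in si-SCR and 0.82 ± 0.36 in si-SMaRT (SD, n = 2), a difference of 1.66 or 3.17-fold. This ratio was chosen after its values were seen, and no test is given. Fbxo32 over Trim54 was 0.622 and 0.644 in si-SCR and 1.44 and 3.601 in si-SMaRT, with the same order of groups and a wider spread in si-SMaRT.

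**Figure D2:**
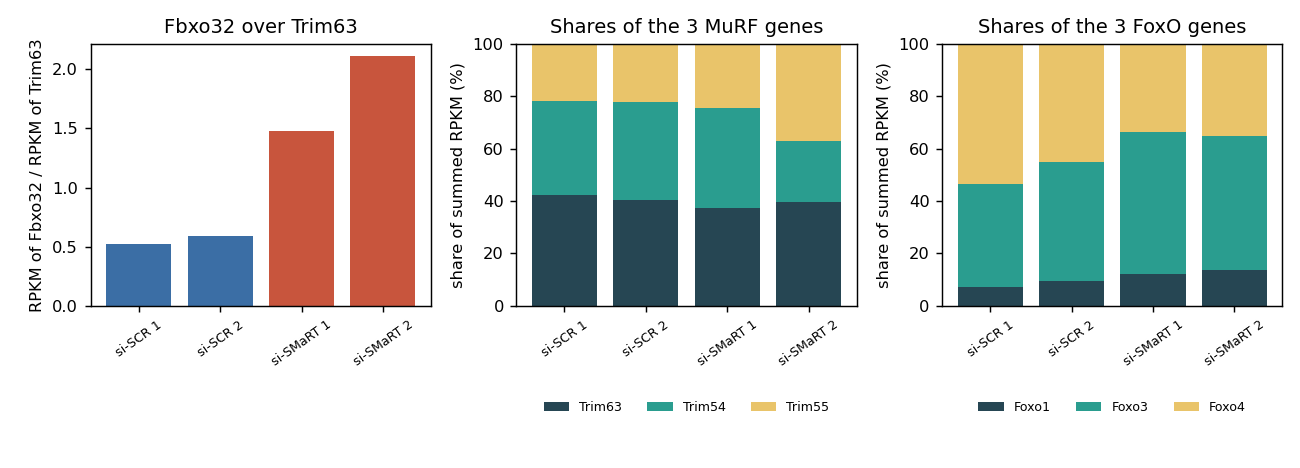
Left, RPKM of Fbxo32 divided by that of Trim63 in each sample. Middle and right, the share (%) of each gene in the summed RPKM of the 3 MuRF genes and of the 3 FoxO genes. The ratio is 0.524 and 0.593 in si-SCR and 1.48 and 2.11 in si-SMaRT, and the share of Foxo4 is 53.3% and 45.1% in the controls and 33.7% and 35.2% upon depletion.

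The FoxO genes encode the transcription factors themselves. Foxo1, on chr3 from 52268336 to 52353221 on the plus strand, had 1.07 and 1.56 RPKM in si-SCR and 2.24 and 2.01 RPKM in si-SMaRT, from 117, 191, 219 and 249 reads. Both si-SMaRT samples were above both controls. The Poisson intervals at 95%, which cover counting error alone, were 0.882 to 1.28 and 1.35 to 1.80 RPKM in si-SCR and 1.95 to 2.56 and 1.77 to 2.27 RPKM in si-SMaRT. Those of si-SCR 2 and si-SMaRT 2 therefore touched. The log2 fold change of Foxo1 was 0.67 (SE 0.32, limma adjusted p = 0.548), on a scale with 0.1 RPKM added, which understates the difference of a gene at so low a level. It was 0.42 without si-SCR 1 and 0.44 with 1 RPKM added. The gene overlaps Gm20402 on the other strand.

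Foxo3, the FoxO factor best known for driving Fbxo32 and autophagy in muscle, spans chr10 from 42181841 to 42276755 on the minus strand. It had 5.76 and 7.47 RPKM in si-SCR and 10.04 and 7.56 RPKM in si-SMaRT. The lower si-SMaRT sample lay barely above the higher control. The log2 fold change was 0.40 (SE 0.28, 95% interval -0.20 to 1.00, limma adjusted p = 0.740). It was 0.20 without si-SMaRT 1, 0.22 without si-SCR 1 and 0.61 without si-SMaRT 2. Foxo4, on chrX from 101254528 to 101260873 on the plus strand, had 7.80 and 7.41 RPKM in si-SCR and 6.25 and 5.19 RPKM in si-SMaRT. Here both si-SMaRT samples were the lower ones, with a log2 fold change of -0.41 (SE 0.27, 95% interval -0.99 to 0.17, limma adjusted p = 0.717).

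Together the 3 FoxO genes had 14.6 and 16.4 RPKM in si-SCR and 18.5 and 14.8 RPKM in si-SMaRT, so the summed levels overlapped. The make-up of the sum differed more than its size. Foxo4 held 53.3% and 45.1% of it in si-SCR and 33.7% and 35.2% in si-SMaRT. Foxo3 held 39.4% and 45.4% in si-SCR and 54.2% and 51.2% in si-SMaRT, and Foxo1 rested at 7.29% and 9.49% against 12.1% and 13.6%. Foxo6, the remaining relative and one that AKT does not keep out of the nucleus in the same way, had 4.20 and 4.71 RPKM in si-SCR and 5.35 and 1.71 RPKM in si-SMaRT. The si-SMaRT values of Foxo6 lay on both sides of the controls, and the GC content of its exons was 69.1%.

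Sesn1 and Bnip3 stand for 2 outputs of the FoxO programme. Sesn1 encodes a sestrin, which restrains mTORC1 when amino acids are scarce and is also a p53 target, and it lies on chr10 from 41809935 to 41908424 on the plus strand. Its level was 20.9 and 19.1 RPKM in si-SCR and 20.1 and 18.8 RPKM in si-SMaRT. These values were interleaved, with a log2 fold change of -0.04 (SE 0.26, limma adjusted p = 0.982), and the 95% interval of -0.59 to 0.51 bounds what could have gone unseen. Sesn2 had 5.96 and 6.19 RPKM in si-SCR and 8.84 and 5.87 RPKM in si-SMaRT, and Sesn3 had 1.97 and 2.26 RPKM against 2.50 and 2.52 RPKM. Neither passed in limma (adjusted p = 0.867 and 0.871).

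Bnip3 encodes a mitochondrial receptor for mitophagy that is induced by hypoxia as well as by Foxo3. It lies on chr7 from 138890836 to 138909519 on the minus strand. Its level was 30.04 and 25.1 RPKM in si-SCR and 25.9 and 46.1 RPKM in si-SMaRT. A single sample, si-SMaRT 2, stood apart, and the other 3 lay close together. The log2 fold change of 0.33 (SE 0.30, limma adjusted p = 0.818) became -0.08 without si-SMaRT 2, 0.20 without si-SCR 2 and 0.75 without si-SMaRT 1, where the limma adjusted p was 0.00217, within a range of 0.00217 to 1.00 over the alternatives. At 43.6%, its exons had the lowest GC content of the 9 genes. Its log2 difference of si-SMaRT 2 over si-SMaRT 1 was 0.83, beside a median of 0.44 for the 200 genes of most similar GC content. Its close relative Bnip3l had 29.7 and 27.0 RPKM in si-SCR and 23.7 and 37.7 RPKM in si-SMaRT, highest in the same sample, and Bnip3 over Bnip3l stayed between 0.930 and 1.22. The exons of Bnip3 overlap the antisense gene Gm45507.

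**Figure D3:**
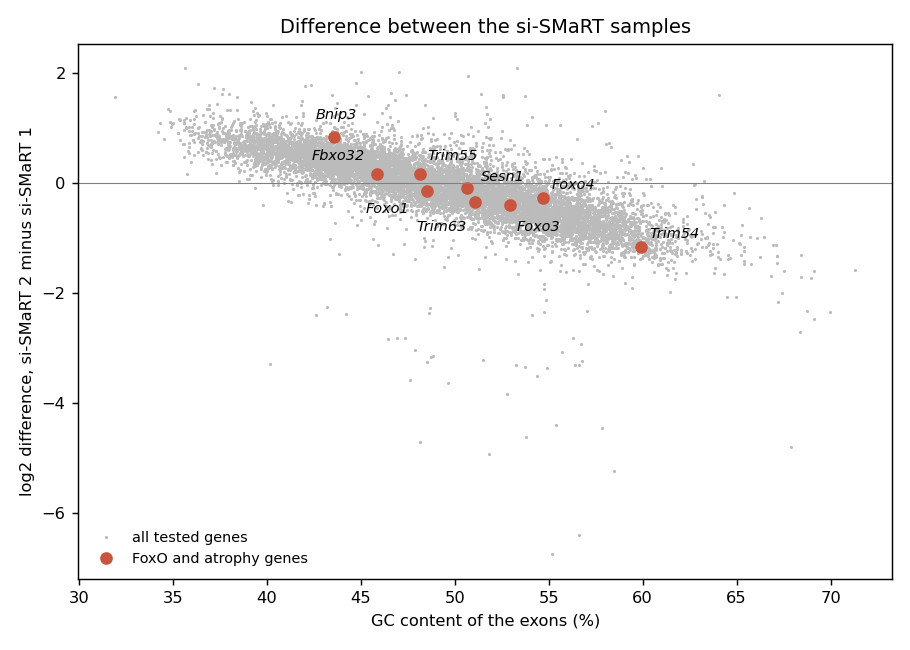
Log2 difference of si-SMaRT 2 over si-SMaRT 1 against the GC content of the exons (%), for all tested genes (grey) and the 9 genes (red). Bnip3 at 43.6% GC lies at 0.83 and Trim54 at 59.9% GC at -1.15, the lowest and the highest GC content among the 9 genes.

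Over the 9 genes, 7 had groups that did not overlap, 3 with higher values in si-SMaRT (Fbxo32, Foxo1 and Foxo3) and 4 with lower ones (Trim63, Trim54, Trim55 and Foxo4), against 40.7% of all tested genes. The median log2 fold change was -0.04, with 4 genes above and 5 below 0. All tested genes had a median of 0.02, with 5795 above and 5291 below 0. With 2 samples per group, the intervals of the log2 fold changes were wide for every one of the 9.

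**Figure D4:**
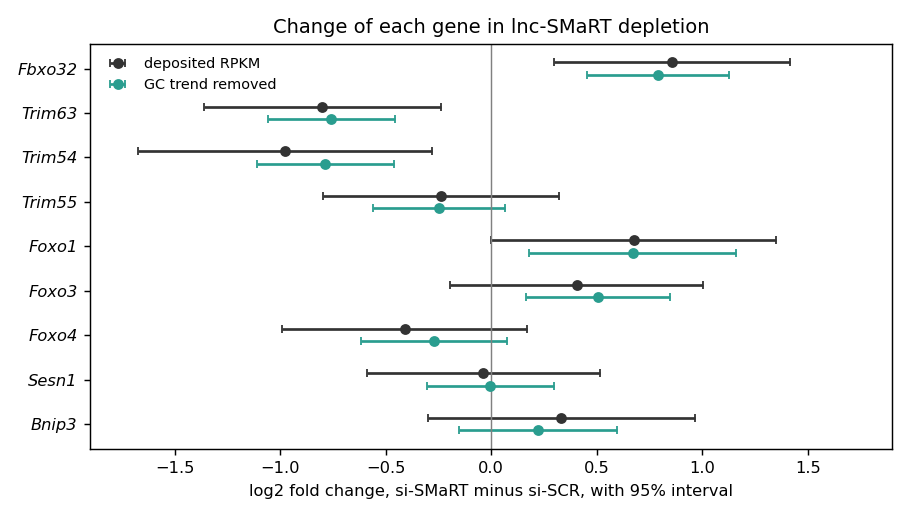
Log2 fold change of each gene, si-SMaRT minus si-SCR, with its 95% interval, from the deposited RPKM (black) and after removal of the GC trend of each sample (green). The intervals of Fbxo32 lie above 0 and those of Trim63 and Trim54 below 0 in both, with values of 0.86, -0.80 and -0.98 in black.

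The regulators and the other targets of the FoxO factors were read from the same fit, as were 9 further lists. By voom, 0 genes passed in 10 of the 11 lists and 9 fell in that of the contractile apparatus, against 108 of all 11085 genes. In the limma fit, 5795 of all 11086 tested genes lay above 0 and 5291 below. Of 20 FoxO regulators tested, 0 passed the adjusted threshold in limma and 2 had an unadjusted p under 0.05, against 9.09% of all genes, and 17 lay above 0, with a median log2 fold change of 0.16. Among these was Crebbp, the gene of an acetyltransferase of FoxO proteins (2.75 and 3.69 RPKM in si-SCR, 5.05 and 4.87 in si-SMaRT, log2 fold change 0.62). Its relative Ep300 had a log2 fold change of 0.48. Of 24 further FoxO target genes tested, 0 passed, 4 had an unadjusted p under 0.05, against 9.09% of all genes, and 16 lay above 0, with a median of 0.22. With the GC trend removed this median was 0.11, and 2 of the 24 rose, against 5.67% of all genes called in either direction.

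Those 2 were Pdk4 and Cited2. Pdk4, the kinase that turns off pyruvate dehydrogenase in fasting, had 1.64 and 1.83 RPKM in si-SCR and 3.10 and 3.36 RPKM in si-SMaRT (limma adjusted p = 0.297, and 0.0385 with the GC trend removed). Cited2, a transcriptional co-regulator that competes with HIF-1 for its co-activators, had 13.2 and 18.6 RPKM in si-SCR and 24.98 and 27.1 RPKM in si-SMaRT (limma adjusted p = 0.3496, and 0.0436 with the GC trend removed). For both, all si-SMaRT values were above the controls. The gene of the death factor BIM, Bcl2l11, had 0.778 and 1.09 RPKM against 1.67 in both si-SMaRT samples, with a log2 fold change of 0.79 (limma adjusted p = 0.434).

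The ubiquitin and proteasome system around Fbxo32 and the MuRF genes lay on both sides of 0. Of 17 other ubiquitin ligases of muscle tested, 0 passed the adjusted threshold in limma. Only 1 had an unadjusted p under 0.05, against 9.09% of all genes, and this was Trim72. This gene encodes MG53, a muscle TRIM protein of membrane repair, and had 74.3 and 91.4 RPKM in si-SCR and 55.6 and 32.5 RPKM in si-SMaRT (log2 fold change -0.95, limma adjusted p = 0.235, and 0.0181 with the GC trend removed). Ube4b and Fbxo21, by contrast, had log2 fold changes of 0.57 and 0.43. The partners of SCF ligases, 13 genes, had a median of 0.01. In limma 0 passed the adjusted threshold and 0 had an unadjusted p under 0.05, against 9.09% of all genes. In this list Cand1, the exchange factor of SCF ligases, had a log2 fold change of 0.41 and Nedd8, whose product activates cullins, one of -0.27.

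Of the 31 proteasome subunits, 30 lay below 0 and 1 above, with a median of -0.32. Of these 0 passed the adjusted threshold in limma and 4 had an unadjusted p under 0.05, against 9.09% of all genes, and the groups did not overlap for 19, against 40.7%. Their summed level was 4051 and 3579 RPKM in si-SCR and 2817 and 3009 RPKM in si-SMaRT, with both si-SMaRT samples below the controls. The catalytic subunit genes Psmb5, in a row joined with Mir686, and Psmb6 had log2 fold changes of -0.86 and -0.83 and fell in limma with the GC trend removed (adjusted p = 0.0405 and 0.0436, against 0.258 and 0.297 without). The ATPase subunit gene Psmc3 had -0.74. Fbxo32 was therefore higher in the same samples in which most proteasome subunits had lower values.

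Autophagy and mitophagy, the other arm of protein and organelle breakdown, had 0 of 23 genes past the adjusted threshold in limma. An unadjusted p under 0.05 was reached by 0 of them, against 9.09% of all genes. Of the 23, 8 lay above and 15 below 0, with a median of -0.19. Tfeb, the regulator of lysosomal genes, had a log2 fold change of -0.72, the protease gene Ctsl -0.38 and Atg12 -0.36. For the breakdown of branched-chain amino acids and proline, a process that Klf15 is known to drive, 11 genes were tested. In limma 0 passed and 0 had an unadjusted p under 0.05, against 9.09% of all genes, with 9 below 0 and a median of -0.36. Bckdha and Bckdk, the genes of a subunit of the branched-chain ketoacid dehydrogenase and of its kinase, had -0.56 and -0.48, and Mccc1 had -0.48.

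In the lists for inputs that Sesn1, Bnip3 and Trim63 share with other pathways, 0 genes passed the adjusted threshold in limma, against 0.505% of all genes. Of 13 p53 target genes, 0 passed in limma and 1 had an unadjusted p under 0.05, against 9.09% of all genes. This was Zmat3, with 1.74 and 1.91 RPKM in si-SCR and 3.57 and 2.99 RPKM in si-SMaRT (log2 fold change 0.81, limma adjusted p = 0.342, and 0.0450 with the GC trend removed). Trp53inp1 and Btg2 had 0.46 and 0.39. The list median was 0.17, and -0.01 without si-SMaRT 1. Of 15 hypoxia genes, with a median of 0.11, 0 passed in limma and 1 had an unadjusted p under 0.05, against 9.09% of all genes. This was Egln3, a prolyl hydroxylase gene that HIF-1 induces, which had 27.4 and 30.7 RPKM in si-SCR and 18.6 and 16.9 RPKM in si-SMaRT (log2 fold change -0.71, limma adjusted p = 0.343, and 0.0252 with the GC trend removed). Adm and Ndrg1, both also induced by hypoxia, had 0.58 and 0.48. Of the 15, 10 lay above 0 and 5 below. With the GC trend removed 2 rose and Egln3 alone fell, against 5.67% of all genes called in either direction. The 2 were Adm (limma adjusted p = 0.0396) and the glucose transporter gene Slc2a1 (0.0403), the latter named after its values were seen. Shared control of these genes and Bnip3 was not tested.

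Glucocorticoid-responsive genes had the highest median of the 11 lists, 0.32, with 9 of 12 tested genes above 0. In limma 0 passed the adjusted threshold and 3 had an unadjusted p under 0.05, against 9.09% of all genes. The 3 were Dusp1, a MAP kinase phosphatase gene (2.64 and 4.64 RPKM in si-SCR, 5.52 and 6.61 in si-SMaRT, log2 fold change 0.77), Fkbp5, a chaperone gene of the receptor (1.25 and 1.21 against 2.14 and 1.88 RPKM, 0.66), and Glul. Glul, the glutamine synthetase gene, whose row is joined with Mir8114, had 9.30 and 8.87 RPKM in si-SCR and 15.5 and 12.4 RPKM in si-SMaRT (limma adjusted p = 0.5002, and 0.0384 with the GC trend removed). All 3, picked by their p, had si-SMaRT values above the controls. Tsc22d3 of the same list, named after its values were seen, had values below them (16.9 and 14.9 RPKM in si-SCR, 11.6 and 12.8 in si-SMaRT). Values below the controls were also those of Trim63, whose promoter window holds the receptor motif. Control of these genes by the receptor was not tested.

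Genes of the contractile apparatus, where the MuRF proteins reside, had the lowest median of the lists, -0.64 over 38 genes tested, with 34 below 0. Of these 2 fell and 0 rose in limma, against 0.505% of all genes called in either direction, and 21 had an unadjusted p under 0.05, against 9.09%. With the GC trend removed 14 fell, against 5.67% called in either direction. Those past the threshold without that step were Mybpc2, the fast myosin binding protein C (1.00 and 0.683 RPKM in si-SCR, 0.220 and 0.0964 in si-SMaRT, limma adjusted p = 0.0400), and Csrp3, a Z-disc protein (23.1 and 19.3 against 9.01 and 7.76 RPKM, limma adjusted p = 0.0356). The si-SMaRT values of Mybpc2 lay near the 0.1 RPKM added. With 1 RPKM added, a mean filter of 1, no prior trend or a replicate block, 1 gene of the list fell. By voom 9 fell, against 108 of all 11085 genes called in either direction. The summed level of the list was 26897 and 24771 RPKM in si-SCR and 15679 and 11957 RPKM in si-SMaRT. The log2 fold change of Trim63 lay above those of 15 and below those of 23 of these 38 genes, and that of Trim54 above 12. Fbxo32 and Foxo1 lay above all 38, of which Myh8 was highest at 0.60. The part of the lower muscle gene levels in the values of Trim63 and Trim54 was not tested.

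**Figure D5:**
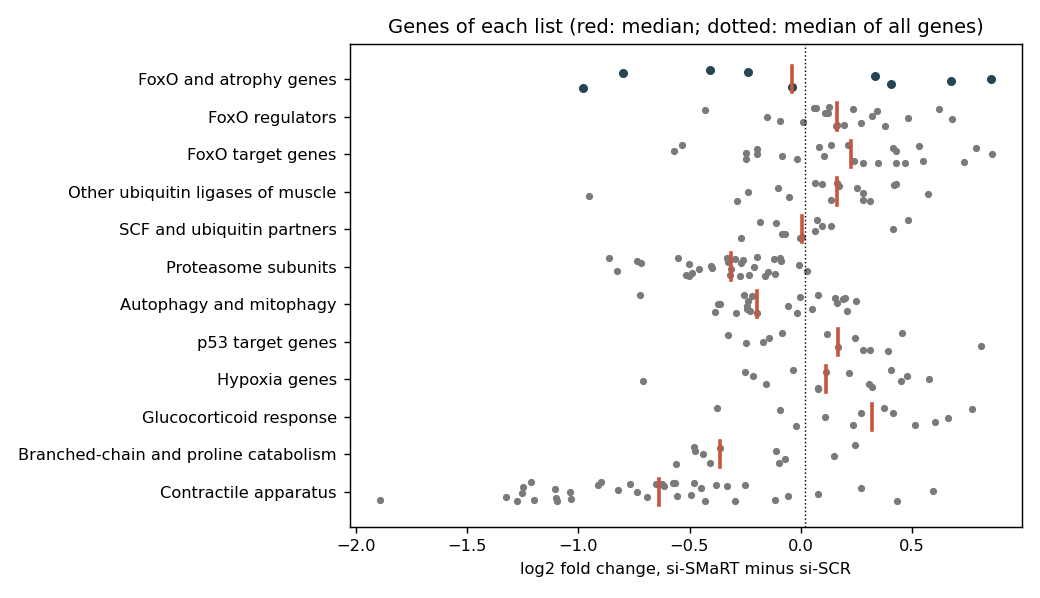
Log2 fold change, si-SMaRT minus si-SCR, of the 9 genes (top line, dark) and of each gene of the 11 lists (grey), with the median of each list (red) and of all tested genes (dotted). The 9 genes spread from -0.98 to 0.86, proteasome subunits centre on -0.32 and contractile genes on -0.64.

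The pull-down asked which RNAs lnc-SMaRT binds. Among 345 deposited peaks of the lnc-SMaRT pull-down and 336 of the LacZ pull-down, 0 in either lay on exons of the 10 genes on the same strand, Klf15 included, and 0 lay anywhere in their gene bodies on either strand. Lists of 345 and 336 peaks leave most genes without one, beside 11642 rows in the expression table, so the 0 is not particular to these 10. The share of all genes with a peak was not worked out. With 1 library each there was no test, and a peak list holds bins past a threshold, so weaker signal on these transcripts was not assessed.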

How the data were processed

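The authors used Trimmomatic for trimming and Bowtie2 against rRNA and tRNA, aligned to GRCm38 with TopHat2 and counted on Ensembl 77 genes with HTSeq in its strict intersection mode. The libraries were stranded and aligned as such, but the strand setting of HTSeq is not given in the sources used here. Whether reads of an antisense neighbour entered the values of Fbxo32, Trim54, Foxo1 and Bnip3 therefore cannot be told. The authors scaled by TMM in edgeR and deposited RPKM values. The pull-down peak lists, as deposited, give a p-value per peak from bins of 200 bases.

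RPKM values were tested here on the log2(RPKM + 0.1) scale for genes whose mean reached 0.5, by lmFit and trended eBayes of limma 3.58.1 under R 4.3.3. P-values were adjusted by Benjamini-Hochberg, with calls under 0.05. The script was tested on simulated data. Fold changes on this scale understate those of low genes. Reads were worked out from the steps of the RPKM values for 11641 of 11642 rows, with the common factor fixed by GENCODE M21 lengths for 6201. They summed to 12608007 and 13981426 in si-SCR and 10753755 and 13727824 in si-SMaRT. These are lower limits, intervals from them cover counting error only, and the RPKM test stayed the main one. Of the rows, 576 join overlapping genes. GC content came from GENCODE M21 exons, with trends removed by loess (span 0.3). Figures were drawn with matplotlib 3.10.9, and other steps ran in Python 3.11.15 with pandas 2.3.3, numpy 2.4.6 and scipy 1.17.1.

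The members, lists and tests were chosen with earlier results of these data known. Named genes were all members, lnc-SMaRT, Foxo6, Sesn2, Sesn3 and Bnip3l, and in each list those past the threshold or else up to 3 with the lowest unadjusted p. That rule aimed at about 25 list genes and gave 32, of which some are not reported here. Alternatives were other pseudocounts (1 and 0.01), filters (none, or a mean of 1), quantile normalization, no prior trend, a replicate block, each sample left out, GC trend removal, and voom. The input was not used here.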

Additional observations from a re-analysis of the deposited data

How the results depend on the processing

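Over the alternatives run, Fbxo32, Foxo1 and Foxo3 kept values above 0 and Trim63, Trim54, Trim55 and Foxo4 values below 0. With a sample left out, Sesn1 ranged from -0.10 to 0.026 on the log2 scale, above 0 without si-SCR 1 and, at 0.010, without si-SMaRT 2, and Bnip3 ranged from -0.084 without si-SMaRT 2 to 0.75 without si-SMaRT 1. The 56 genes past the threshold became 37 under quantile normalization, 108 with voom, 593 with the GC trend removed and 24 to 2908 with a sample left out (24 without si-SCR 1, 30 without si-SCR 2, 2908 without si-SMaRT 1 and 941 without si-SMaRT 2). Of the 9 genes, 3 passed with the GC trend removed, and 0 to 4 with a sample left out: Fbxo32, Trim63, Trim54 and Bnip3 without si-SMaRT 1, Fbxo32 and Trim63 without si-SMaRT 2. Leaving out a sample leaves a group of 1, which is assumed to vary like the other group.

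The titles number the replicates without saying whether same-numbered samples were paired, and the authors' mention of 2 independent populations does not settle it. Deviations of same-numbered samples had a correlation of -0.36 over 11086 genes. The difference of replicate 2 over 1 also ran with GC content in opposite directions (Spearman -0.845 in si-SMaRT, 0.355 in si-SCR). This correlation therefore cannot decide the pairing. With the replicate number as a block, 96 genes and 0 of the 9 passed, and with the block and the GC trend removed 259 genes and 3 of the 9. A crossed block, chosen after seeing the data, gave 487 genes and 2 of the 9. The cause of these shifts was not tested. The other alternatives left 0 of the 9 past the threshold and the count of genes within 1.5 times. Of the list medians on the log2 scale, these moved by over 1.5 times. Without si-SMaRT 2, glucocorticoid-responsive genes had 0.55, FoxO regulators 0.10, autophagy genes -0.07, branched-chain genes -0.17, p53 targets 0.10, hypoxia genes 0.0047 and SCF partners -0.08. Without si-SMaRT 1, FoxO regulators had 0.36, SCF partners 0.26, p53 targets -0.0066 and hypoxia genes 0.20. Without si-SCR 1, FoxO targets had 0.14, other ubiquitin ligases 0.05, autophagy genes -0.13 and SCF partners -0.03. Without si-SCR 2, FoxO regulators had 0.29, other ubiquitin ligases 0.28, p53 targets 0.0997 and SCF partners -0.06. With the GC trend removed, FoxO regulators had 0.10, FoxO targets 0.11, autophagy genes -0.11, branched-chain genes -0.24, p53 targets 0.09 and SCF partners -0.02, and under quantile normalization proteasome subunits had -0.20, autophagy genes -0.07, hypoxia genes 0.18 and SCF partners 0.09. The counts of peaks on the 10 genes were 0 under every alternative. With 2 samples per group, depth limited Foxo1 most, at 117 reads in si-SCR 1.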
